A study of Mus musculus with 4 samples.

Results

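The Shox2 landscape was taken as the part of chromosome 3 from 66.0 to 67.3 Mb of the mouse genome build mm9, and its members were all Meis ChIP-seq peaks with a summit in that stretch. It held 31 of the 21338 peaks listed for forelimb (FL) buds, with 37 summits, and 19 of the 16987 peaks listed for hindlimb (HL) buds, with 23 summits. A summit is the position of a local maximum of the ChIP signal, and a peak may hold more than 1. The chromatin came from wild-type C57BL/6 embryos at E10.5 (about 36 somites), and about 500 buds were pooled for each limb. Each pool gave 1 input library and 1 ChIP library. For the latter, antibodies with different reach were combined, so that every Meis1 isoform but only the a and c forms of Meis2 were targeted. No embryo carried a mutation or received a treatment.

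Since each limb was represented by 1 ChIP library, the values below carry no error between replicates, and differences between limbs were described without a test. The peak lists carry no transcript levels, so the labelled limbs could not be checked against marker genes. A bud is a mixture of mesenchyme, ectoderm and other cells, and fewer bound cells cannot be told apart from weaker binding per cell. Fold enrichment gives how many times the ChIP signal at the summit exceeded the local input background, and q is the p-value of the peak corrected for all positions tested, both as the authors' peak caller gave them.

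Shox2 encodes a homeodomain transcription factor that is needed for the proximal segment of the limb, the humerus and the femur, and also for the sinoatrial node of the heart and for the palate. Meis1 and Meis2 are homeodomain factors of the TALE class, expressed in the proximal part of the early limb bud, which bind DNA alone or with Pbx and Hox partners. Genes of this kind are commonly flanked by long stretches without other coding genes that hold enhancers, and limb enhancers of Shox2 are known from its downstream desert. Enhancers are bound by many factors at once, and binding alone does not show that a gene is regulated from that site.

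Shox2 starts at 66785693 and is read towards lower coordinates. Its desert therefore lies at lower coordinates and is bounded by Veph1, whose start was placed at 66100759, 685 kb downstream of the Shox2 start. In the GENCODE annotation of GRCm38, a later build, the interval from Veph1 to Shox2 holds 0 protein-coding genes and 5 pseudogenes. On the other side Rsrc1, which encodes a protein linked to splicing, starts at 66789594 and runs away from Shox2, so that the starts of the pair are 3901 bp apart. Mlf1 starts at 67178070, 392 kb from Shox2. The exon or intron of each peak was not assigned, because the annotation at hand is of another build than the peaks.

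The 250 bases before the starts of Shox2 and Rsrc1 are shown because no listed peak of either limb covered the Shox2 start, while a weak FL peak lay just outside this window of Rsrc1. They are the RefSeq sequences of GRCm38.p6, written 5′ to 3′ on the strand of the gene. The Shox2 stretch is chr3:66981772-66982021 on the minus strand, and the Rsrc1 stretch is chr3:66985412-66985661 on the plus strand. Capitals mark TGACA, or its reverse complement, which is the first part of the Meis hexamer TGACAG and so is contained in every match to that hexamer.
Shox2: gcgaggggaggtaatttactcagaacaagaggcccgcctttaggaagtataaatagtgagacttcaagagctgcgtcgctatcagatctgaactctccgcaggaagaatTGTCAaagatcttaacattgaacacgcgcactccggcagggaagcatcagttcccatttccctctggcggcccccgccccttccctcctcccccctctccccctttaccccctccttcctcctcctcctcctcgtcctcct
Rsrc1: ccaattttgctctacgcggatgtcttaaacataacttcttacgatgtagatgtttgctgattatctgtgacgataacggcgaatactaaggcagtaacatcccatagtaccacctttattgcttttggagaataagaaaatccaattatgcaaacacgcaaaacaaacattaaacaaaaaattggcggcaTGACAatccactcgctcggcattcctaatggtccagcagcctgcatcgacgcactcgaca
Each of these promoters held 1 match to TGACA, 137 to 141 bases before the start of Shox2 on the strand opposite to the gene (printed as its reverse complement) and 56 to 60 bases before the start of Rsrc1 on the strand of the gene. Of the 32851 RefSeq promoters of this length, 40.0% held TGACA on either strand. The full hexamer TGACAG, found in 15.9% of promoters, had 0 matches in both. The Hox-Pbx octamers TGATTTAT (0.837% of promoters) and TGATTGAT (0.670%) and the T-box octamer AGGTGTGA (1.12%) also had 0 matches in both. These counts describe letters in the windows and say nothing of binding. The sequence under the peaks was not analysed here, since the genome at hand is not the build of the peak lists.

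The peak nearest to the Shox2 start was an FL peak from 66789120 to 66789305, with its summit 3.54 kb upstream of Shox2 and 356 bp before the Rsrc1 start. Its fold was 2.93 and its q was 1, and the nearest HL summit was 45.4 kb away. On the desert side the nearest FL peaks were 15.0 and 16.7 kb from the Shox2 start, with folds of 2.54 and 2.37 and a q of 1. By the length of Shox2 in RefSeq (10049 bp), both would lie past the end of the gene. In HLs no peak was listed between 41.9 kb downstream and 55.3 kb upstream. FL peaks with q at most 0.05 were likewise first met 42.0 kb downstream and 55.3 kb upstream, so that a stretch of 97.2 kb around the start held none. In HLs the stretch without such a peak was 132 kb long. Apart from these 3 low FL peaks, the listed binding thus lay more than 40 kb from the Shox2 start in both limbs.

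**Figure D1:**
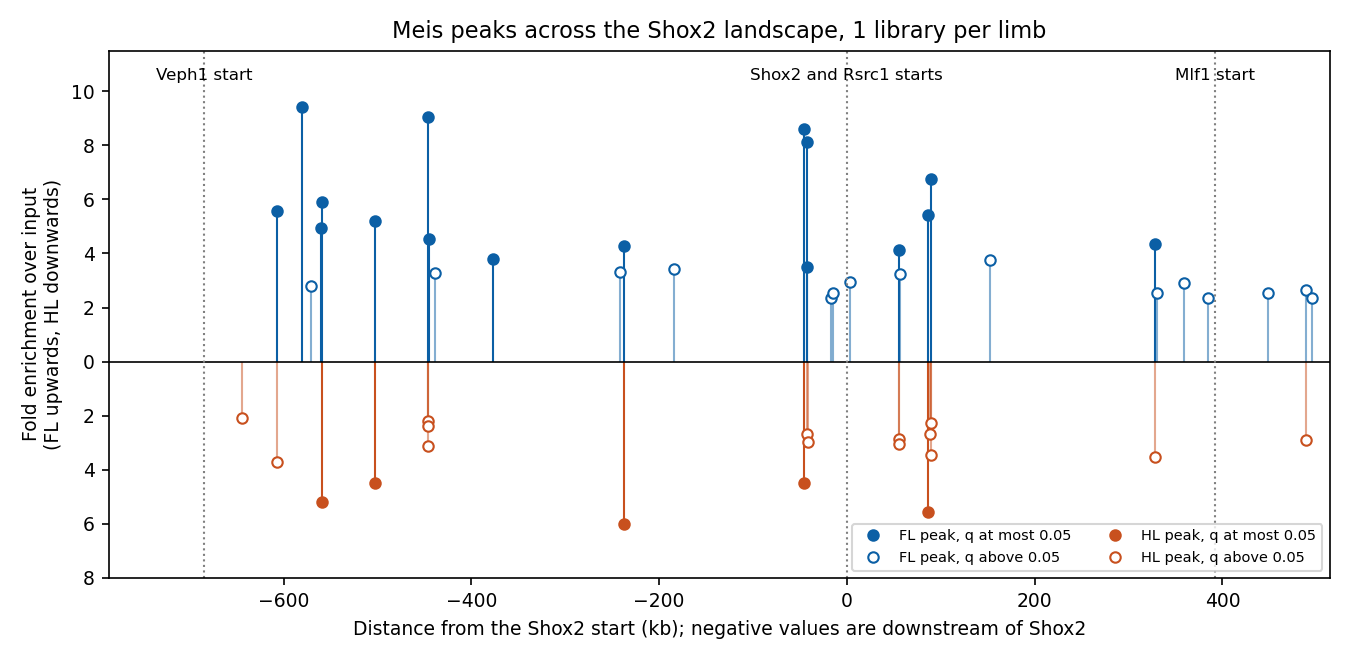
Fold enrichment over input (vertical axis, FL upwards and HL downwards) of each Meis peak against the distance of its tallest summit from the Shox2 start (horizontal axis, kb, negative values downstream). Filled points have q at most 0.05 and open points do not. The 4 tallest FL peaks, with folds from 8.11 to 9.43, all lie on the desert side. Of the filled points, 12 of 16 in FLs and 4 of 5 in HLs are found there, on the longer side of the window.

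Of the 31 FL peaks, 16 had a q of at most 0.05 (51.6%, 95% exact interval 33.1 to 69.8%), against 17.4% of all FL peaks. Of the 19 HL peaks, 5 had such a q (26.3%, 9.15 to 51.2%), against 10.1% of all HL peaks. These intervals cover counting error only. A looser limit, p at most 0.0005, was met by 67.7% of FL members and 57.9% of HL members, against 31.7% and 37.0% of the whole lists. The median fold of the members was 3.76 in FLs and 3.06 in HLs, where the median of both whole lists was 2.78. FL members ranged from 2.34 to 9.43 and HL members from 2.09 to 6.01. Members were also longer than most peaks, with a median length of 254 bp in FLs (166 bp over the list) and 207 bp in HLs (132 bp over the list).

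The desert makes up 685 kb of the 1.3 Mb. It held 58.1% of the FL members and 57.9% of the HL members, not far from its part of the length. Between the Veph1 and Shox2 starts there were 18 FL peaks (2.63 per 100 kb) and 11 HL peaks (1.61 per 100 kb), with median folds of 4.41 and 3.12. The 388 kb from the Rsrc1 start to the Mlf1 start held 9 FL peaks (2.32 per 100 kb) and 7 HL peaks, with median folds of 3.76 and 3.06. The numbers of peaks per length on the flanks of Shox2 were thus near each other in both limbs. The highest FL folds were 9.43 on the desert side and 6.75 on the Rsrc1 side. Peaks with q at most 0.05 amounted to 12 in FLs and 4 in HLs on the desert side, against 4 and 1 on the shorter Rsrc1 side. Per 100 kb this was 1.75 against 1.03 in FLs and 0.584 against 0.257 in HLs, the latter from few peaks. Beyond the Mlf1 start 3 FL peaks and 1 HL peak were listed, with folds from 2.37 to 2.89, and none had a q of at most 0.05. On the Veph1 side of the window no peak of either limb was listed. The first peaks inside the lower edge were 179 kb from it in FLs (fold 5.56) and 141 kb in HLs (fold 2.09), and the last outside were 90.3 kb away in FLs (fold 3.32) and 66.4 kb in HLs (fold 2.01). At the upper edge the last peaks inside had folds of 2.37 (FL) and 2.89 (HL), and the first outside had folds of 2.53 and 4.25.

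When summits of either limb at most 10 kb apart were joined, the 50 peaks formed 21 groups. Of these, 10 held peaks of both limbs, 10 held FL peaks alone and 1 held an HL peak alone. A peak with q at most 0.05 was found in 11 groups, and in 5 of them both limbs had such a peak. Those 5 lay 559 to 560, 502, 237 to 242 and 41.9 to 46.1 kb downstream of Shox2 and 85.9 to 89.5 kb upstream. In 2 groups an FL peak with q at most 0.05 had no HL peak beside it, 581 and 377 kb downstream. Groups were not formed over the whole lists, so these counts of groups stand without a comparison. Over the whole lists, 22.6% of FL peaks and 29.0% of HL peaks were overlapped by a peak of the other limb. Between neighbouring member peaks the longest stretch was on the Rsrc1 side in both limbs and measured 176 kb in FLs and 239 kb in HLs. The FL stretch was shorter than the 179 kb without an FL summit at the lower edge.

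The highest fold of the landscape belonged to an FL peak in the far part of the desert, 581 kb downstream of Shox2, from 66204728 to 66205208. It had a fold of 9.43 (q = 1.46e-16) and ranked 212 among all FL peaks. No HL peak overlapped it, and the nearest HL summit was 21.6 kb away. Among the 16525 FL peaks without an overlapping HL peak it was the 8th by fold. Of the 381 FL peaks in the whole list with a fold of at least 8, 19 had no HL peak (4.99%), and in the Shox2 landscape this was 1 of 4. A site absent from the HL list has no value there. It can only be said that it did not reach the loose cutoff of that list, in which the highest p was 0.0217.

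At the next FL peak in height, 446 kb downstream of Shox2 and running from 66339706 to 66340040, both limbs were listed but differed in height. The fold was 9.05 in FLs (q = 1.68e-16) and 2.20 in HLs (q = 1), with the summits 11 bp apart. The ratio of 4.12 was the 7th highest of the 4813 pairs of overlapping FL and HL peaks. Since tall FL peaks have higher ratios in general, it was also set against the 362 pairs with an FL fold of at least 8, whose median log2 ratio was 0.78. The log2 ratio here was 2.04, and 7 of these pairs (1.93%) had one as high, this one included. HL signal around the site was listed as 3 short separate peaks, with folds of 3.12, 2.20 and 2.37 and summits 321 bp below, 11 bp above and 251 bp above the FL summit. All 3 had a q above 0.05. The outer pair overlapped no FL peak. A further FL peak 445 kb downstream, from 66340153 to 66340402, reached a fold of 4.54 (q = 0.00183) without an overlapping HL peak.

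Closer to the gene, 3 FL peaks lay within 5 kb of one another, 46.1, 42.9 and 42.0 kb downstream of Shox2. The outermost, from 66739343 to 66739857, had a fold of 8.61 in FLs (q = 2.24e-14) and of 4.50 in HLs (q = 1.14e-04), with summits 14 bp apart. The middle peak, from 66742561 to 66743373, was the longest member with 813 bp, and its folds were 8.11 in FLs (q = 3.80e-12) and 2.68 in HLs (q = 1). The innermost, from 66743464 to 66743946, had folds of 3.51 in FLs (q = 0.00784) and 2.97 in HLs (q = 1). All 3 sites were therefore listed in both limbs, with FL to HL ratios of 1.91, 3.03 and 1.18. The ratio of 3.03 ranked 44 among all shared pairs. The HL peak at the middle site held a pair of low summits, 47 and 157 bp from the single tall FL summit.

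At 3 further desert sites the FL fold was the higher by less than 1.5 times. At 502 kb downstream (66283259 to 66283552 in FLs) the folds were 5.21 in FLs (q = 7.46e-06) and 4.48 in HLs (q = 0.00489). At 559 kb downstream (66226414 to 66227098) they were 5.89 in FLs (q = 9.78e-06) and 5.20 in HLs (q = 6.47e-05). At 607 kb downstream (66178678 to 66179331), the outermost shared site, the FL fold was 5.56 (q = 8.11e-06) and the HL fold 3.73 (q = 0.137). The ratios were 1.16, 1.13 and 1.49, and at the last site the HL peak had a q above 0.05. At the site 559 kb downstream the limbs differed in their summits. FLs had a summit with a fold of 5.89 and another, 172 bp further, with a fold of 3.95. In HLs a summit 6 bp from the lower FL summit had a fold of 3.08 and a q above 0.05. The taller HL summit (5.20) lay 166 bp beyond it. The tallest summits of the limbs were thus 332 bp apart and on opposite sides of the summit they had in common. An adjoining FL peak 560 kb downstream, with a fold of 4.96 (q = 5.95e-04), had no HL peak over it.

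The tallest HL peak of the landscape was the main exception to the higher folds of FLs. It lay 237 kb downstream of Shox2, from 66548158 to 66548695, with a fold of 6.01 in HLs (q = 3.61e-07, rank 425 of all HL peaks). The FL peak there had a fold of 4.28 (q = 2.45e-04), and the summits were 2 bp apart. The HL peak also held a further summit 260 bp away with a fold of 4.94, where the FL peak had none. The log2 ratio of FL to HL fold was -0.49, a difference smaller than the 1.5-fold taken as a limit. Over the 771 shared pairs with an HL fold of at least 5, the median log2 ratio was -0.12, and the 3 such pairs of the landscape ranged from -0.49 to 0.18.

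On the Rsrc1 side the binding was strongest 85.9 to 89.5 kb upstream of Shox2. The peak from 66871411 to 66871829 had nearly the same fold in FLs (5.42, q = 8.11e-06) and HLs (5.58, q = 6.19e-05), with summits 28 bp apart. Its neighbour from 66874485 to 66875072 was higher in FLs, with a fold of 6.75 (q = 8.53e-08) against 3.46 in HLs (q = 0.386). There too the HL list gave 3 short peaks around 1 FL summit, with folds of 2.68, 3.46 and 2.29, all with a q above 0.05. Sites about 3 kb apart thus differed in the balance of the limbs, as did those of the group 41.9 to 46.1 kb downstream. At 55.3 kb upstream an FL peak of fold 4.12 (q = 0.0206) overlapped a pair of HL peaks with folds of 2.88 and 3.06 (both q = 1). The lower summit of the FL peak (fold 2.43, q above 0.05) was 11 bp from that of the taller HL peak. At 328 kb upstream the folds were 4.34 in FLs (q = 0.00355) and 3.54 in HLs (q = 0.507). By the length of Rsrc1 in RefSeq (377040 bp), all of these would lie within that gene.

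**Figure D2:**
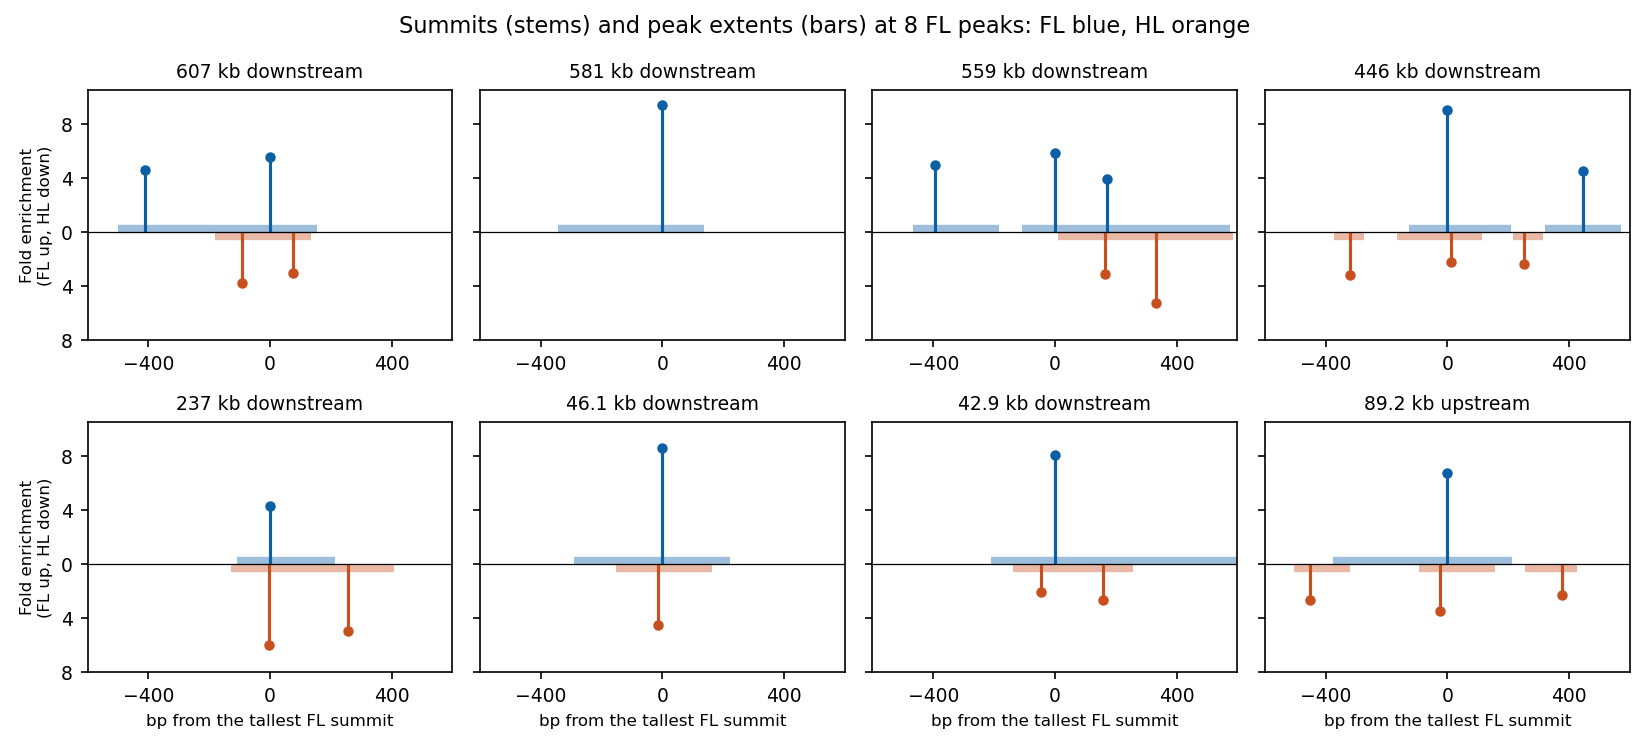
Close-ups of the 7 FL peaks with the highest folds and of the FL peak under the tallest HL peak (237 kb downstream), in order of position. The horizontal axis gives bp from the tallest FL summit and the vertical axis fold enrichment, with FL upwards in blue and HL downwards in orange. Stems are summits and bars the extents of the peaks. No HL peak is seen 581 kb downstream, whereas 446 kb downstream and 89.2 kb upstream 3 low HL summits surround 1 tall FL summit.

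An HL peak overlapped 13 of the 31 FL members by at least 1 bp (41.9%, 95% exact interval 24.5 to 60.9%), against 22.6% of all FL peaks. In the other direction 15 of the 19 HL members overlapped an FL peak (78.9%, 54.4 to 93.9%), against 29.0% of all HL peaks. A pair of these HL peaks shared the FL peak 55.3 kb upstream, and another pair that 89.2 kb upstream. The interval counts the HL peaks of such a pair as separate. Most peaks of the loose whole lists had a q above 0.05, so these shares are not those of well-supported sites. Members had a low q more often, and the comparison was not matched for height. When the overlap had to cover at least 50% of both peaks, the shares were 22.6% of FL members (14.8% of all FL peaks) and 36.8% of HL members (18.6% of all HL peaks). Among FL members with q at most 0.05, 4 of 16 had no overlapping HL peak, against 33.0% of all such FL peaks. They were the peaks 581, 560, 445 and 377 kb downstream, the last of which had a fold of 3.79 (q = 0.0289). HL summits were nevertheless close to those at 560 and 445 kb, at distances of 0.559 and 0.194 kb. For those at 581 and 377 kb the nearest HL summit was 21.6 and 68.7 kb away. Among HL members with q at most 0.05, 0 of 5 lacked an FL peak, against 10.7% of all such HL peaks. The 4 HL members without an FL peak had folds from 2.09 to 3.12 and a q of 1. The 14 FL members with q above 0.05 and without an HL peak had folds from 2.34 to 3.76.

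The 13 shared pairs were compared in height, taking for each FL peak the tallest HL peak that overlapped it. The FL fold was the higher in 10 pairs, against 62.1% of all 4813 shared pairs. It was at least 1.5 times the HL fold in 4 pairs (22.2% of all pairs), and the HL fold was at least 1.5 times the FL fold in 0 pairs (7.65% of all pairs). The median log2 ratio of FL to HL fold was 0.29 (interval from order statistics -0.04 to 0.96), where the median over all shared pairs was 0.17 (0.15 to 0.19). The interval of the members includes the median of all pairs. It reflects the spread among the 13 sites, some of them neighbours, and not an error between libraries. The range among the members, from -0.49 to 2.04, was wide. As a description, Pearson's r of the log2 folds was -0.06 over the 13 pairs and 0.52 over all 4813, and all points in each come from the same pair of libraries.

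**Figure D3:**
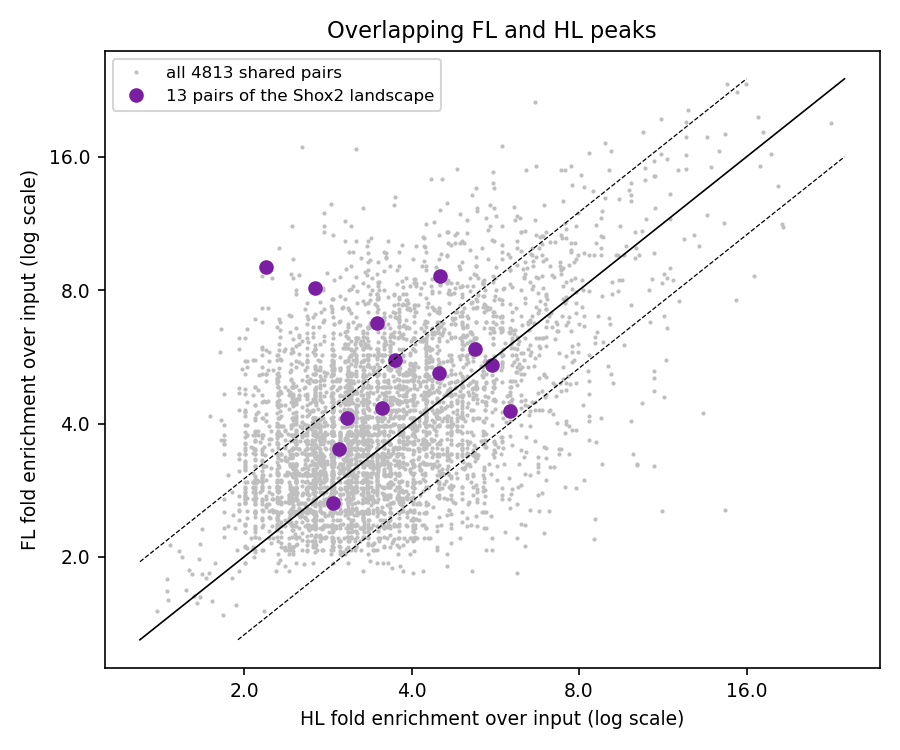
FL fold (vertical axis) against HL fold (horizontal axis, both log scales) of overlapping peaks. Grey points are all 4813 shared pairs, purple points the 13 pairs of the Shox2 landscape, the solid line equal folds and the dashed lines a 1.5-fold difference. The members spread from a log2 ratio of -0.49 to 2.04, and 4 of them lie above the upper dashed line.

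Summit positions were compared in the same pairs. In 7 of the 13 pairs the tallest summits of FLs and HLs were at most 50 bp apart, against a higher share, 67.2%, of all shared pairs. The median distance was 35.0 bp (30.0 bp over all pairs). When any summit of the peaks was allowed, 10 of 13 pairs had summits that near, against 73.5% of all pairs. The largest distances between tallest summits, 352, 332 and 157 bp, belonged to sites where at least 1 limb had more than 1 summit. Peaks with 2 or more summits numbered 6 of 31 in FLs (19.4%, 7.45 to 37.5%), against 6.14% of all FL peaks, and 4 of 19 in HLs (21.1%, 6.05 to 45.6%), against 4.15% of all HL peaks. These shares were not matched for length or height, and the members had the higher median of both in each limb. Distances between the summits of a peak ranged from 78 to 412 bp in FLs and from 166 to 260 bp in HLs. Beside the sites already described, FLs had paired summits 570 kb downstream (folds 2.44 and 2.78) and 330 and 496 kb upstream (folds up to 2.53 and 2.37), all with a q of 1.

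The density of peaks was set against the rest of the genome as a description. The landscape held 23.8 FL peaks and 14.6 HL peaks per Mb, against 8.11 and 6.46 over the whole lists. For peaks with q at most 0.05 the densities were 12.3 per Mb in FLs and 3.85 per Mb in HLs, against 1.42 and 0.654. When the chromosomes were divided into 2011 other windows of 1.3 Mb, 7 windows (0.348%) held at least 16 FL peaks with q at most 0.05, and 56 (2.78%) held at least 5 such HL peaks. Counting every listed peak, 119 windows (5.92%) had as many as the 31 FL peaks and 242 (12.0%) as many as the 19 HL peaks.

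**Figure D4:**
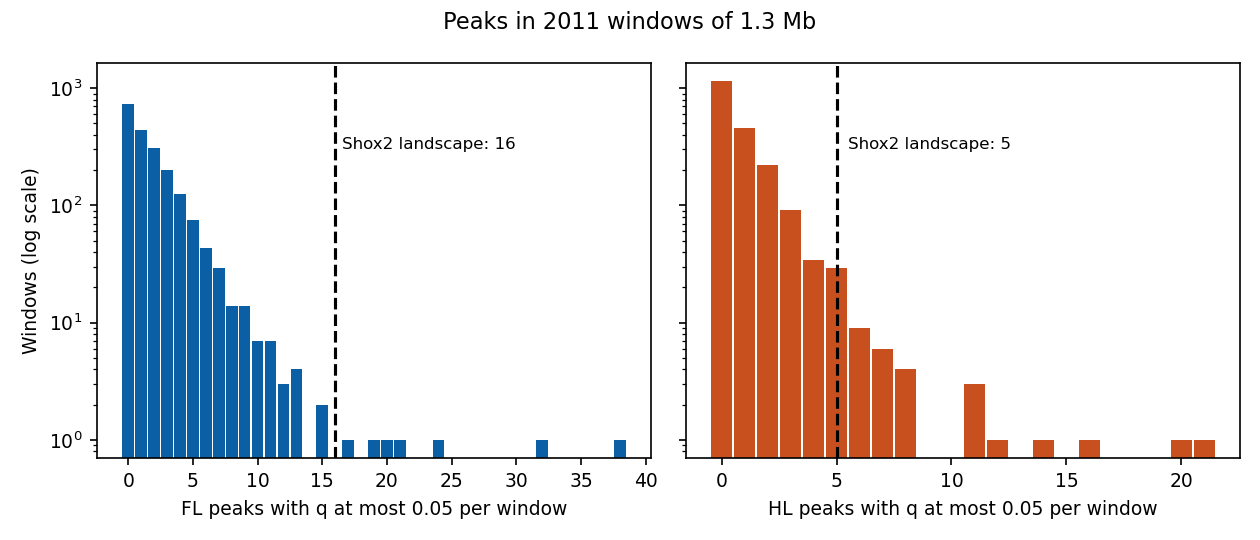
Number of windows of 1.3 Mb (vertical axis, log scale) by the number of FL peaks (left) or HL peaks (right) with q at most 0.05 that they hold. Dashed lines mark the Shox2 landscape, with 16 FL peaks, a number reached by 7 of 2011 windows, and 5 HL peaks, reached by 56.

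Shox2 was finally placed among genes of the proximal limb and of cartilage, a list chosen with earlier results of these data known. Of 20 such genes, 16 had a start that could be worked out in mm9. An FL peak with q at most 0.05 lay within 100 kb of the start of 11 of them and an HL peak of 9, against 47.1% and 28.4% of all 1987 genes with a start. Those starts come from a list of genes near peaks common to both limbs, so the shares are not those of all genes. Shox2 itself counts among them, with 6 such FL peaks and 2 such HL peaks. Hoxa9, a member of a Hox cluster named here after its values were seen, had 13 and 7, and the other 14 genes had at most 3 in either limb. The window of 100 kb leaves out the peaks of the far Shox2 desert, among them the 2 tallest of the landscape.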

How the data were processed

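Per the labels, base calls were made with CASAVA 1.8.2 and adapters trimmed with cutadapt 1.3. The authors mapped the single-end reads of 50 bp to mm9 with BWA, flagged duplicates, and filtered what remained. Peaks were then called by MACS2 for each limb separately, using its own input as the control and splitting peaks into summits. The deposited fold is a ratio of ChIP signal over local background. The authors also deposited p and q on the −log10 scale, and a score that is 10 times the −log10 p without decimals and was not used. The highest p listed was 0.0220 in FLs and 0.0217 in HLs. Reads per library are not part of the lists, and depth limits which peaks pass.

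Rows that shared both boundaries were merged into 1 peak, represented by its highest fold and lowest q. FL and HL peaks overlapped when they shared at least 1 bp, and each was paired with the overlapping peak of the highest fold. Gene starts came from the distances between FL summits and genes that the study lists, kept where all agreed within 2 bp. Intervals are exact binomial or, for medians, from order statistics, at 95%. For the windows, the highest peak end stood for the length of a chromosome. Pairing was tested on simulated peaks. Calculations were made in Python 3.11.15 with pandas 2.3.3, numpy 2.4.6 and scipy 1.17.1, and plots with matplotlib 3.10.9. The sites given in full were those with q at most 0.05, the 5 tallest of each limb, those nearest to the Shox2 start, those with several summits and those at the edges. The landscape and lists were chosen with earlier results of these data known.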

Additional observations from a re-analysis of the deposited data

How the results depend on the processing

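No paired analysis was possible because each limb gave 1 ChIP library, and no replicate could be left out. Limits of p, q or fold moved the counts most. Peaks with q at most 0.05 and a fold of at least 5 numbered 9 in FLs and 3 in HLs. The share of the whole lists at that limit was not worked out, so these counts stand without a comparison. A p of at most 0.0005 left 11 HL peaks (57.9% of the HL members, against 37.0% of all HL peaks). An overlap of at least 50% of both peaks lowered the shared share to 22.6% in FLs and 36.8% in HLs. Under the same rule it was 14.8% and 18.6% of all peaks. Taking members with q at most 0.05 and any peak of the other limb gave 75.0% and 100%. Most peaks with such a q were shared in the whole lists too, where 33.0% in FLs and 10.7% in HLs had no peak of the other limb. With such peaks alone, 80.0% of HL members lay in the desert, against 57.9% of all HL members. The density of such peaks was 8.70 times that of the whole list in FLs and 5.88 times in HLs, against 2.94 and 2.26 times for all peaks. A gene window of 50 kb lowered the FL count of the proximal limb list to 7, and the share of all genes at 50 kb was not worked out. The other 23 of 35 alternatives stayed within 1.5 times of the count, or within the interval or spread of the share or ratio. Among them, a gap of 5 kb gave 23 groups and one of 25 kb gave 18, against 21 at 10 kb. The median log2 ratio of shared pairs was 0.13 after that of all pairs was taken off. Depth is not part of the lists. The paper reports slightly more raw reads for the HL than for the FL ChIP library, with a smaller share mapped uniquely. The part of depth in the longer FL list was not tested.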
